A study of Mus musculus with 2 samples.

Results

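TRBV16 is the mouse gene segment for the V region of the TCR β chains that antibodies against Vβ11 recognise. Its chains were taken as every TRB contig with the V call TRBV16 in the 2 libraries of the study, 1 of WT mice (C57BL/6J) and 1 of Btla-/- mice (C57BL/6-Btla KO), all aged 8 to 12 weeks. There were 543 such chains among the 9322 TRB chains of both libraries, 217 in WT and 326 in Btla-/-, and the gene was chosen by its measured share of TRB chains in these libraries. In both libraries CD4 SP T cells were obtained from thymocytes by negative selection for naive CD4 T cells, and full-length the TCR transcripts were sequenced cell by cell with the 10x Genomics V(D)J method. The number of mice behind each library is not given in the sources used here, so each genotype was 1 sample and no test between genotypes was made. The intervals below are exact (Clopper-Pearson) 95% binomial intervals unless another kind is named, and they cover counting error only, not the spread between mice or library preparations. For a count of 0 the limit given is instead 3 counts of the total, which is lower than the upper end of the exact interval.

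The WT library held 4040 cells with 80347 TCR UMIs (unique molecular identifiers, which mark single transcripts), and the Btla-/- library held 5077 cells with 75456. TCR contigs alone were measured, so neither Btla transcripts nor markers of CD4 SP T cells could be checked against the labels. The libraries had 30 cell barcodes in common, which carried 3 TRBV16 chains in WT and 2 in Btla-/-.

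A TCR β chain is assembled in the thymus by the RAG recombinase, which cuts beside recombination signals and joins a V, a D and a J segment. Bases are trimmed from the cut ends and others are added, so the CDR3 loop, which spans the joint and meets the peptide, differs from cell to cell, while CDR1 and CDR2 are read directly from the V gene. T cells with Vβ11 are known to be deleted in mouse strains whose I-E molecules present endogenous superantigens, and C57BL/6 mice lack I-E. The joined β chain later pairs with an α chain made from TRAV and TRAJ segments.

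In the GRCm38 build (GENCODE M21) Trbv16 lies on chromosome 6 from 41151740 to 41152230 on the plus strand, is annotated as a TCR V gene, and stands between Trbv15 and Trbv17. Its first exon runs from 41151740 to 41151839 and its second from 41151933 to 41152230. The second exon is shown because all 3 loops of the V region start from it. The capitals mark, in order, the codons of CDR1, of CDR2 and of the germline start of the CDR3, at chr6:41151933-41152230, plus strand.

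Trbv16 second exon: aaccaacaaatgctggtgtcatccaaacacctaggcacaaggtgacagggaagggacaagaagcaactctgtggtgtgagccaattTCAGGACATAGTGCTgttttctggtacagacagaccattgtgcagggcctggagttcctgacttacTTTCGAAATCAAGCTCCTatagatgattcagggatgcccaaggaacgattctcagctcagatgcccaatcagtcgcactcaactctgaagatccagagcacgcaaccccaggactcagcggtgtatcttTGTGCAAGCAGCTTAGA

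These codons give the CDR1 SGHSA and the CDR2 FRNQAP. Over the 273 bases from framework 1 to framework 3, 542 of the 543 TRBV16 contigs had exactly the germline sequence. The remaining contig, from the Btla-/- library, was 3 bases longer, had 6 UMIs and was joined to TRBJ1-2. Of the 21 other V calls, TRBV15 was closest to TRBV16 over this region, with 72.6% identical bases, and TRBV14 came next with 64.5%.

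The end of the gene is shown with its recombination signal, since the joints described below start there. The first 17 bases are the germline start of the CDR3, and the capitals mark the heptamer and the nonamer of the signal, which are separated by a spacer of 23 bases, at chr6:41152214-41152269, plus strand.

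Trbv16 end and signal: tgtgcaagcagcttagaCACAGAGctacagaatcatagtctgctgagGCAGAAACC

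TRBV16 made up 5.24% of TRB chains in WT (217 of 4141, interval 4.58 to 5.96%) and 6.29% in Btla-/- (326 of 5181, interval 5.65 to 6.99%). It ranked 9 among the 22 V calls in WT and 5 in Btla-/-. The share in Btla-/- was 1.05 percentage points above that in WT. These shares were the values that chose the gene, and they are given as a description. Among the 20 V calls with at least 1% of chains in both libraries, 0% had shares that differed 1.5-fold or more between Btla-/- and WT. TRBV16 took 5.90% of the UMIs of TRB chains in WT and 7.05% in Btla-/-.

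The share of TRBV16 was also counted by the number of UMIs of the contig, as a description of the values that chose the gene. Among contigs with 1 or 2 UMIs, TRBV16 was 4 of 87 in WT (4.60%, interval 1.27 to 11.4%) and 8 of 140 in Btla-/- (5.71%, 2.50 to 10.9%), too few to place it. Among contigs with 3 or 4 UMIs it was 3 of 327 in WT (0.917%, 0.190 to 2.66%) and 25 of 581 in Btla-/- (4.30%, 2.80 to 6.29%). At 5 UMIs or above it was 210 of 3727 in WT (5.63%, 4.92 to 6.42%) and 293 of 4460 in Btla-/- (6.57%, 5.86 to 7.34%). The share at 3 or 4 UMIs minus that at 5 UMIs or above was -4.72 percentage points in WT and -2.27 in Btla-/-.

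The Btla-/- share minus the WT share was 1.12 percentage points at 1 or 2 UMIs, 3.39 at 3 or 4 UMIs and 0.935 at 5 UMIs or above, and no order among the strata was drawn from these values. With the last stratum divided further, a choice made after the data were seen, the shares in WT and Btla-/- were 3.65% and 5.72% at 5 to 9 UMIs, 6.58% and 6.75% at 10 to 19, and 6.12% and 7.75% at 20 or more. The median TRBV16 contig had 15 UMIs in WT and 12 in Btla-/-, against 13 and 10 for other TRB contigs. Whether the genotype difference itself varied with UMI depth was not tested.

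**Figure D1:**
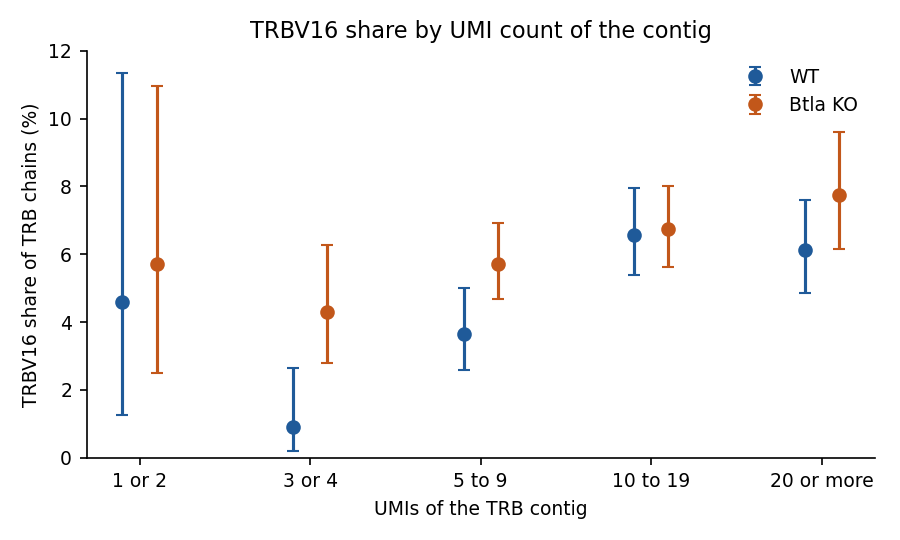
TRBV16 share of TRB chains (%) by the number of UMIs of the contig, for the WT and Btla KO libraries. Points are shares and bars are exact 95% intervals. At 3 or 4 UMIs the WT share was 0.917% and the Btla KO share 4.30%, and at 10 to 19 UMIs they were 6.58% and 6.75%.

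The J segment supplies the end of the CDR3. The 12 TRBJ genes lie in the TRBJ1 and TRBJ2 clusters, each with its own D and C gene. The TRBJ genes joined most often to TRBV16 over both libraries were TRBJ2-7, TRBJ2-5 and TRBJ2-4. TRBJ2-7 was in 32 TRBV16 chains in WT (14.7%, interval 10.3 to 20.2%) and 50 in Btla-/- (15.3%, 11.6 to 19.7%), close to its 16.0% and 14.8% of other TRB chains. TRBJ2-5 was in 35 chains in WT (16.1%, 11.5 to 21.7%) and 37 in Btla-/- (11.3%, 8.12 to 15.3%), and TRBJ2-4 in 29 (13.4%, 9.14 to 18.6%) and 28 (8.59%, 5.78 to 12.2%).

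TRBJ2-5, TRBJ2-4 and TRBJ1-6 had the largest mean differences from other TRB chains. For TRBJ2-5 and TRBJ2-4 the excess came from the WT library, where TRBV16 chains stood 5.32 and 5.03 percentage points above other chains and their intervals lay above the 10.8% and 8.33% of other chains. In Btla-/- the differences were 0.165 and -0.0619 percentage points. These J genes were named for their differences in these data, so the place of the WT intervals is a description only. The WT TRBJ2-4 chains include sequences found in 2 cells, which the interval counts as separate. TRBJ1-6 was rarer with TRBV16 in both libraries, at 1.84% against 4.26% in WT and 2.15% against 3.67% in Btla-/-. The interval of TRBJ1-6 in TRBV16 chains, 0.504 to 4.65% in WT and 0.868 to 4.37% in Btla-/-, included the value of other chains in each library.

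Between the libraries, 2 of the 12 TRBJ genes (16.7%) differed at least 1.5-fold in TRBV16 chains, against 0% of the 12 in other TRB chains. The 217 and 326 TRBV16 chains are far fewer than the 3924 and 4855 other chains. Shares of few chains pass a fold more easily by counting error, so the 2 counts are not alike. TRBJ1-3 was in 3.23% of TRBV16 chains in WT (7 chains, 1.31 to 6.53%) and 7.06% in Btla-/- (23 chains, 4.52 to 10.4%). TRBJ2-4, given above, had the higher share in WT. It passed the fold narrowly, with a Btla-/- to WT ratio of 0.643, and its chains included sequences repeated in more than 1 cell. For both genes the intervals of the libraries overlapped.

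The TRBJ2 cluster supplied 67.7% of TRBV16 chains in WT (147 chains, 61.1 to 73.9%) and 61.7% in Btla-/- (56.1 to 67.0%), beside 59.8% of other chains in both libraries. The WT interval lay above the value of other chains and the Btla-/- interval included it. No TRBV16 chain joined a J gene of a cluster to the C gene of the other. A D gene was not called in 75.1% of TRBV16 chains in WT and 76.4% in Btla-/-. TRBD2 with a TRBJ1 gene, an order that deletional joining does not allow, was called in 0 of 217 and 0 of 326 TRBV16 chains. At 3 counts of the total this allows called shares of up to 1.38% and 0.920% of all TRBV16 chains. TRBD1 with a TRBJ1 gene was called in only 17 and 27 of them, so few chains could have shown the order. In other chains it was called in 3 of 3924 in WT and 1 of 4855 in Btla-/-.

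The total variation distance, the summed share of chains that would have to change J gene to make 2 usages equal, runs from 0 to 1. Between TRBV16 and other TRB chains it was 0.130 in WT and 0.0615 in Btla-/-. Between the libraries it was 0.114 for TRBV16 chains and 0.0327 for other chains, and such distances grow as the chains behind them become fewer. Of the 19 V calls with at least 1% of chains in both libraries that were ranked, the joint call TRBV12-2+TRBV13-2 had the TRBJ usage most like that of TRBV16, with a mean distance of 0.105 over the 2 libraries. TRBV10 followed with 0.109 and TRBV5 with 0.111, and the order of these 3 was not tested. Their distances were close to the 0.114 between the libraries within TRBV16 itself. Of the genes named in the joint call, TRBV12-2 ranked 5 with 0.131 and TRBV13-2 ranked last with 0.242. TRBV13-2 had 83 chains in WT and 110 in Btla-/-, against 328 and 405 for the joint call. Whether the ranking follows the number of chains was not tested.

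**Figure D2:**
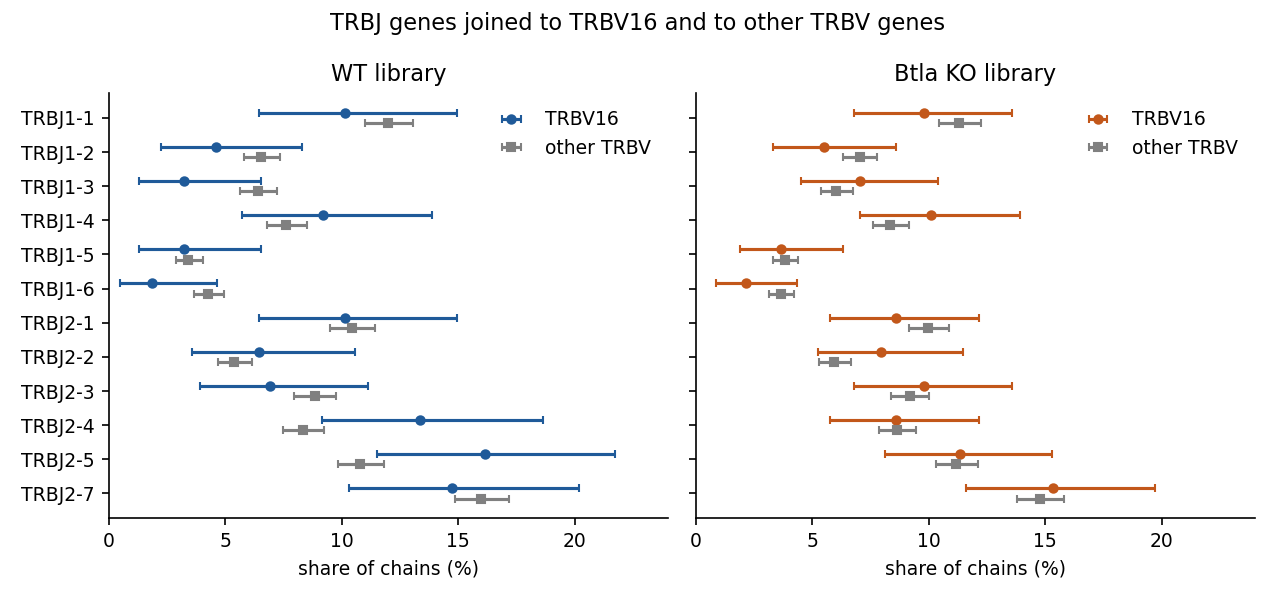
Share (%) of TRBV16 chains (circles) and of other TRBV chains (squares) joined to each TRBJ gene, in the WT and Btla KO libraries, with exact 95% intervals as bars. TRBJ2-5 reached 16.1% of TRBV16 chains in WT and 11.3% in Btla KO, and TRBJ1-6 lay at 1.84% and 2.15%.

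The CDR3 of TRBV16 chains began with the sequence that the V gene encodes. The first 12 germline bases, which encode CASS, were intact in 194 WT chains (89.4%, 84.5 to 93.2%) and 291 Btla-/- chains (89.3%, 85.4 to 92.4%). The same 12 bases began the CDR3 of 0 of 3924 other chains in WT and 0 of 4855 in Btla-/-, which at 3 counts of the total allows shares of up to 0.0765% and 0.0618%. As residues, CASS began 94.0% and 91.7% of TRBV16 chains and also 66.4% and 67.2% of other chains, so other V genes encode the same residues with other bases. The V call is itself made from the contig sequence, so the difference in bases is no independent finding.

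CASSL was the most frequent start of 5 residues. It began 108 TRBV16 chains in WT (49.8%, 42.9 to 56.6%) and 169 in Btla-/- (51.8%, 46.3 to 57.4%), against 16.0% of other chains in both libraries. The leucine had the germline codon in 98 of the 108 WT chains and 139 of the 169 Btla-/- chains, and another leucine codon in the rest. CASSP followed with 15.2% and 11.0%, CASSS with 8.76% and 11.0%, and CASSF with 6.45% and 7.67%. With 1 residue more, CASSLD began 16.1% of TRBV16 chains in WT and 16.3% in Btla-/-. The last germline bases, GA, leave a codon that can become only aspartate or glutamate, and all 45 WT and all 71 Btla-/- chains with the whole germline end had one of these residues next.

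The V end was trimmed to a similar extent in both libraries. All 17 germline bases were kept in 45 WT chains (20.7%, 15.5 to 26.7%) and 71 Btla-/- chains (21.8%, 17.4 to 26.7%). Over the chains of 19 other V genes whose germline end was found, the whole end was kept in 24.2% and 24.4%. With the annotated end in place of the first signal, which changes TRBV31 alone, these were 22.4% and 22.5%. A second peak lay at 12 bases, with 24.9% of WT and 20.9% of Btla-/- chains. A mean of 2.99 ± 2.41 bases (SD over chains, n = 217) was missing from the V end in WT and 2.92 ± 2.21 (n = 326) in Btla-/-, counts in which an added base that happens to match the germline hides a lost one.

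Where the whole V end was kept, the next base was T, the complement of the last germline base, in 26 of 45 WT chains (57.8%, 42.2 to 72.3%) and 31 of 71 Btla-/- chains (43.7%, 31.9 to 56.0%). A palindromic base of this kind is left when the hairpin at a cut end is opened off its tip. In other V genes the corresponding base followed a whole V end in 54.8% and 52.8% of chains. Between the V and J bases lay a mean of 10.8 ± 3.93 bases in WT TRBV16 chains and 10.8 ± 4.07 in Btla-/- ones.

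**Figure D3:**
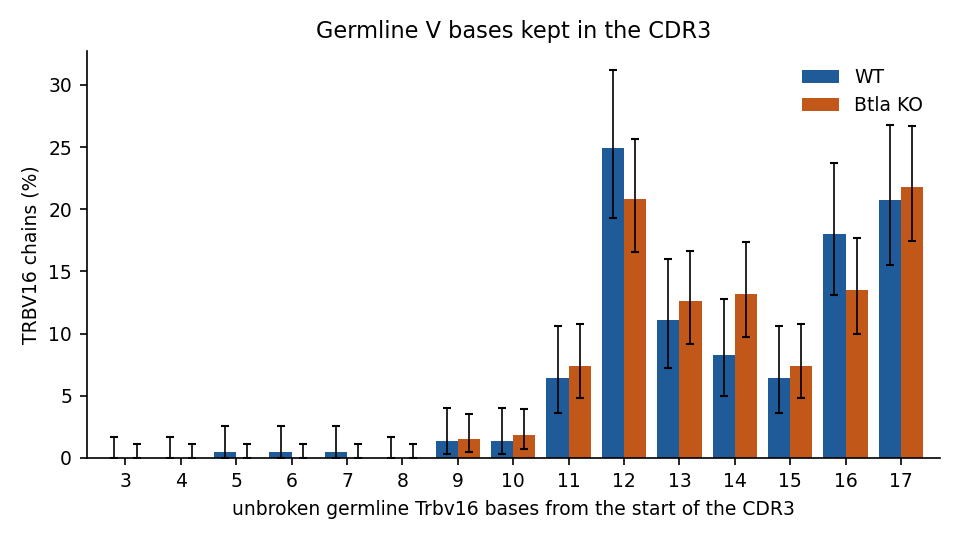
Share (%) of TRBV16 chains by the number of unbroken germline Trbv16 bases at the start of the CDR3, for the WT and Btla KO libraries, with exact 95% intervals as bars. Both libraries peaked at 12 bases (24.9% and 20.9%) and at the whole end of 17 bases (20.7% and 21.8%).

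The CDR3 of TRBV16 chains had a mean of 14.4 ± 1.54 residues in WT (SD, n = 217 chains, normal 95% interval of the mean 14.2 to 14.6) and 14.5 ± 1.44 in Btla-/- (n = 326, 14.4 to 14.7), against 14.2 in other chains of both libraries. The median was 15 residues in both libraries against 14 in other chains. The WT interval, from 14.18, overlapped that of other WT chains, 14.15 to 14.25, while the Btla-/- interval lay above that of other Btla-/- chains. Loops of at least 16 residues made up 22.1% (16.8 to 28.2%) and 23.9% (19.4 to 28.9%) of TRBV16 chains, against 17.9% and 19.1%. Loops of at most 12 residues made up 14.3% (9.92 to 19.7%) and 9.82% (6.81 to 13.6%), against 12.8% and 11.8%, values that lay within these intervals. The most frequent length was 15 residues for TRBV16 chains in WT and 14 in Btla-/-, against 14 for other chains of both libraries. Set against other chains with the same J gene, the TRBV16 mean was longer for 8 of 12 J genes in WT and 9 of 12 in Btla-/-. A longer loop was not particular to TRBV16, which ranked 5 by mean length among the 22 V calls in WT and 6 in Btla-/-. TRBV5 chains, for example, had means of 14.8 residues in WT and 14.7 in Btla-/-.

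**Figure D4:**
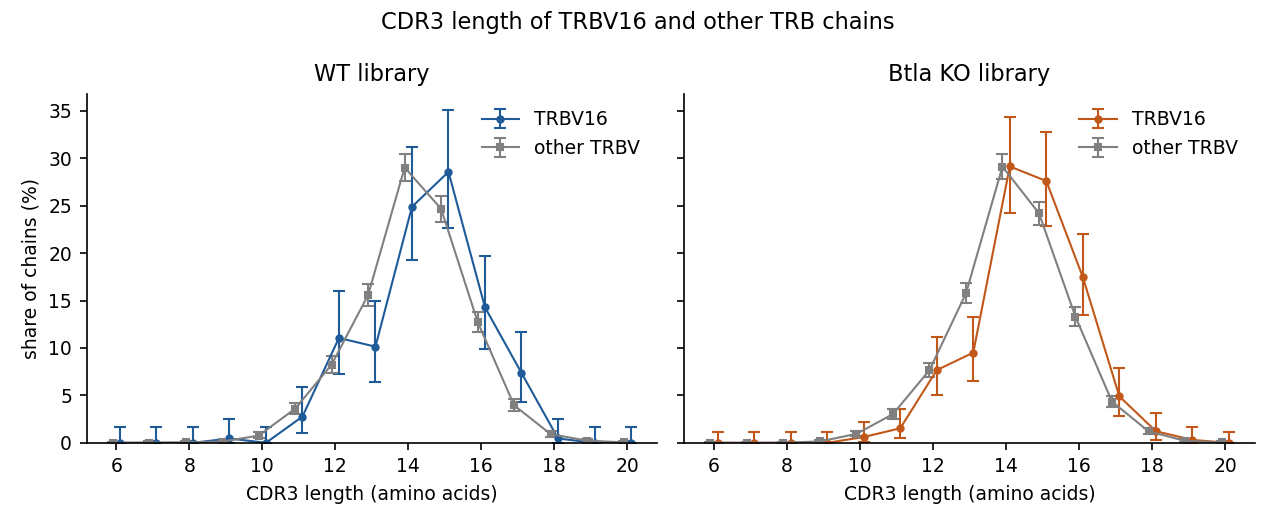
Distribution of CDR3 length in amino acids for TRBV16 chains (circles) and other TRB chains (squares) in the WT and Btla KO libraries, as a share of chains (%) with exact 95% intervals. The TRBV16 chains had a median of 15 residues in both libraries and the other chains 14.

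A TRA chain was found in 106 of 217 TRBV16 cells in WT (48.8%, 42.0 to 55.7%) and 131 of 325 in Btla-/- (40.3%, 34.9 to 45.9%), 1 Btla-/- cell having 2 TRBV16 chains. Other cells with a TRB chain had one in 41.3% and 34.2%. Among cells whose TRB contig had at least 5 UMIs these were 48.6% of TRBV16 cells against 41.6% of other cells in WT and 40.4% against 34.4% in Btla-/-. The higher share was not particular to TRBV16, though most other V calls had lower ones. No TRA chain was found beside 50.3% of TRBV31 chains in WT and 55.8% in Btla-/-, against 51.2% and 59.5% of TRBV16 chains. The TRBV16 cells held 116 TRA chains in WT and 139 in Btla-/-, of 16 and 14 of the 20 TRAV subgroups found in the libraries. TRAV6, TRAV7 and TRAV12 were the most used over both libraries. TRAV6 was in 16.4% of TRA chains of TRBV16 cells in WT (19 chains, 10.2 to 24.4%) and 16.5% in Btla-/- (23 chains, 10.8 to 23.8%), beside 15.9% and 15.4% in other cells.

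TRAV12, TRAV7 and TRAV16 had the largest mean differences from other cells. TRAV12 was in 10.3% of TRA chains of TRBV16 cells in WT (12 chains, 5.46 to 17.4%) and 16.5% in Btla-/- (23 chains, 10.8 to 23.8%), against 11.0% and 10.7% in other cells. TRAV7 was in 12.1% (14 chains, 6.76 to 19.4%) and 19.4% (27 chains, 13.2 to 27.0%), against 12.7% and 14.7%. TRAV16 was in 2.59% and 2.88%, against 5.01% and 3.03%. In Btla-/- the TRAV12 interval lay above the value of other cells by a narrow margin and the TRAV7 interval included it, while both WT intervals included theirs. The Btla-/- TRAV12 chains include the same TRAV12N-2 chain in both cells of a repeated TRBJ2-5 sequence, which the interval counts as separate. These subgroups were also named for their differences in these data, so the narrow margin is a description only. The WT and Btla-/- intervals overlapped for each of these subgroups. The total variation distance of TRAV usage between TRBV16 cells and other cells was 0.0904 in WT and 0.145 in Btla-/-. The joined TRAJ gene was numbered 30 or lower, the part of the locus nearer the C gene, in 46.6% of TRA chains of TRBV16 cells in WT and 56.1% in Btla-/-, against 48.5% and 57.8% in other cells. The intervals of TRBV16 cells, 37.2 to 56.0% in WT and 47.5 to 64.5% in Btla-/-, overlapped and included the value of other cells in their own library.

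**Figure D5:**
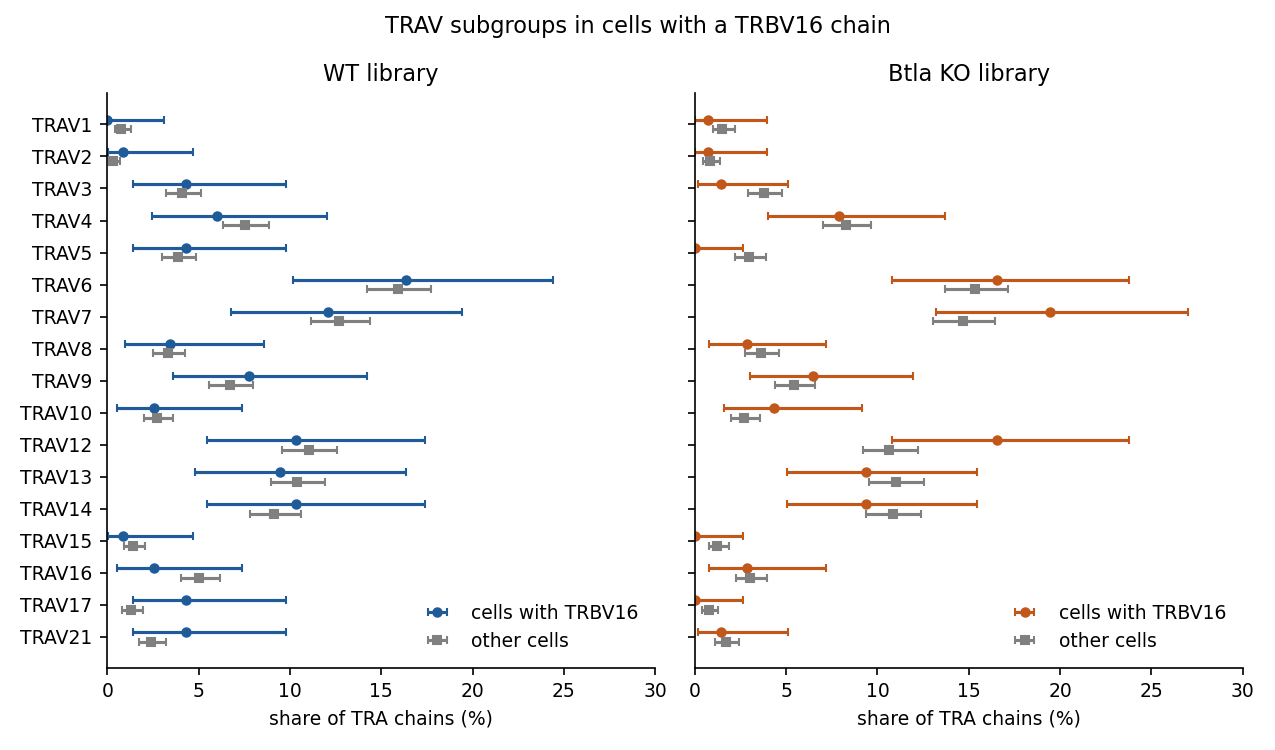
Share (%) of TRA chains by TRAV subgroup in cells with a TRBV16 chain (circles) and in other cells (squares), for the WT and Btla KO libraries, with exact 95% intervals as bars. TRAV12 was at 10.3% in TRBV16 cells of WT and 16.5% in those of Btla KO, and TRAV6 at 16.4% and 16.5%.

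Most TRBV16 CDR3 sequences were found in a single cell. Of 211 distinct nucleotide sequences in WT, 5 were in more than 1 cell (2.37%, 0.774 to 5.44%), and of 312 in Btla-/-, 13 were (4.17%, 2.24 to 7.02%), against 3.03% and 4.48% for other TRB chains. They covered 11 WT cells and 27 Btla-/- cells, with 1 sequence in each library found in 3 cells and the others in 2. The 10 with most cells, ties in alphabetical order, are shown with their germline part. Alphabetical order of sequences with the same start also sorts them by the germline bases kept. The sequences shown are therefore no fair sample of the trimming, and the repeated sequences not shown kept 14 to 16 germline bases. The capitals mark the unbroken germline Trbv16 bases.

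WT, TRBJ1-4, 3 cells: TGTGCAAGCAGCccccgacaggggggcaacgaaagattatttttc
Btla-/-, TRBJ1-5, 3 cells: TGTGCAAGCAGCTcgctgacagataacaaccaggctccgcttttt
Btla-/-, TRBJ1-3, 2 cells: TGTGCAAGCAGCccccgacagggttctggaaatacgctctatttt
Btla-/-, TRBJ2-3, 2 cells: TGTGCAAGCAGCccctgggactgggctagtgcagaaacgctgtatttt
Btla-/-, TRBJ1-2, 2 cells: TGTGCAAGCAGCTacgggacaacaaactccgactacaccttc
Btla-/-, TRBJ2-5, 2 cells: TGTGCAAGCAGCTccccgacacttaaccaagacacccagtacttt
Btla-/-, TRBJ2-1, 2 cells: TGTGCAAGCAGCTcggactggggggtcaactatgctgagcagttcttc
Btla-/-, TRBJ1-1, 2 cells: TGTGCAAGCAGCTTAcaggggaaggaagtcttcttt
WT, TRBJ1-4, 2 cells: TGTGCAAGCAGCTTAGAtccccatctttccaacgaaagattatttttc
Btla-/-, TRBJ2-7, 2 cells: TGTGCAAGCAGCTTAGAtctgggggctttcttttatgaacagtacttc

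Of these 10 sequences, 2 kept the whole V end, 1 in each library. Over all 18 repeated sequences, 7 had a TRA chain in at least 2 of their cells, 1 in WT and 6 in Btla-/-, and in 7 of the 7 the cells had the same TRA nucleotide sequence. For the TRBJ2-3 sequence of Btla-/- this was TRAV6-7-DV9 with TRAJ57, and its cells had 43 and 45 TRB UMIs. In 3 Btla-/- sequences both cells had more than 1 TRB chain and also had a further TRB chain in common. The contigs of repeated sequences had a median of 7 UMIs in each library, against 16 in WT and 12 in Btla-/- for the other TRBV16 contigs. The barcodes of cells with the same sequence differed at 10 or more positions in WT and 8 or more in Btla-/-. Whether such cells were separate cells of a clone or droplets with the RNA of the same cell was not tested.

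Between the libraries, 2 CDR3 amino acid sequences of TRBV16 chains were in common, 0.948% of the 211 distinct ones in WT and 0.643% of the 311 in Btla-/-, and no nucleotide sequence was. The matching share of other TRB chains is not given here, so these counts cannot be read as high or low. Both are shown, with the germline bases in capitals, because the bases differ where the residues do not.

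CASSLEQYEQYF in WT, TRBJ2-7: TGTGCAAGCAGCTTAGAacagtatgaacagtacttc
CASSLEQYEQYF in Btla-/-, TRBJ2-7: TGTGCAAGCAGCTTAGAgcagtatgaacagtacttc
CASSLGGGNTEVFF in WT, TRBJ1-1: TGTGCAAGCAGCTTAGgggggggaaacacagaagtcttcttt
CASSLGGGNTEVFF in Btla-/-, TRBJ1-1: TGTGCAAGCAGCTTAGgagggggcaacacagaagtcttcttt

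The first pair kept all 17 germline bases and differed at 1 base, and the second kept 16 and differed at 2. Each of the 4 chains was found in 1 cell.

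A further TRB chain was found beside 15 of 217 TRBV16 chains in WT (6.91%, 3.92 to 11.1%) and 28 of 326 in Btla-/- (8.59%, 5.78 to 12.2%), against 6.35% and 6.30% of other TRB chains. The intervals of TRBV16 included the values of other chains. Such barcodes can be cells with both β alleles joined or droplets with more than 1 cell, which cannot be told apart here.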

How the data were processed

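The authors assembled contigs with Cell Ranger 7.2.0 on a GRCm38 V(D)J reference, and the deposited files list, contig by contig, unnormalized counts of UMIs and reads. All contigs listed were productive and from called cells. Every TRB contig was used, and no step removed droplets with more than 1 cell. The summary tables of the series were not used. The annotation can exchange near-identical V genes, and the joint call TRBV12-2+TRBV13-2 was kept as a call of its own. The germline V end was taken up to the first CAC of a recombination signal from GRCm38.

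The gene, the lists and the fold of 1.5 were chosen with earlier results of these data known, and the fold was raised after counts at a lower one had been seen. Named were the 3 TRBJ genes and TRAV subgroups most used with TRBV16, the 3 with the largest mean difference from other chains, the 3 V calls nearest by total variation distance of TRBJ usage, and up to 10 repeated CDR3 sequences. Tried as alternatives were a minimum of 3 UMIs per contig, cells with 1 TRB chain, the contig with most reads per cell, distinct chains, barcodes of both libraries left out, the median length, CDR3 starts of 4 and 6 residues, and the Jensen-Shannon distance. Scripts were tested on simulated data and ran in Python 3.11.15 with pandas 2.3.3 and scipy 1.17.1. The simulated TRBJ usages rested on more chains per V gene than these data. That test therefore does not show that the nearest V calls could be recovered here.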

Additional observations from a re-analysis of the deposited data

How the results depend on the processing

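No paired analysis was possible because each genotype had 1 library and the labels give no replicate numbers. Of 114 values under alternatives, 102 lay within the interval of the reported value or within 1.5 times the reported count, and 12 moved beyond it. A change of direction was looked for only in the difference in TRBV16 share, which stayed positive in its 5 alternative settings. That share chose the gene, and the settings count mostly the same chains, so the unchanged sign is a description only. The interval of the difference, not of the exact kind, included 0 with cells of 1 TRB chain (-0.0456 to 1.91 percentage points). It also included 0 with the contig with most reads per cell (-0.0305 to 1.88). In the other settings, and as reported, it lay above 0. The TRBV16 share ranged from 5.19 to 5.30% in WT and from 6.12 to 6.31% in Btla-/-, and their difference from 0.935 to 1.08 percentage points. With a minimum of 3 UMIs for TRA as well as TRB contigs, a TRA chain was found in 35.7% of WT and 25.9% of Btla-/- TRBV16 cells. With cells of 1 TRB chain it was found in 34.9% of Btla-/- ones. Other cells were not counted under these settings, so whether they still differed from TRBV16 cells was not tested. The median CDR3 length was 15 residues in WT and 15 in Btla-/-. The most frequent start of 4 residues covered 94.0% of WT and 91.7% of Btla-/- chains, and that of 6 residues 16.1% and 16.3%. Compared as nucleotides, 0 sequences were in both libraries. With a fold of 1.2 in place of 1.5, added after the data were seen, 7 of 20 V calls differed between the libraries. TRBV16 passed this fold only by a very narrow margin. Its share also chose the gene, so its place among the 7 is a description only. That place was not counted again under the other alternative settings. At the same fold 5 of 12 TRBJ genes in TRBV16 chains differed between the libraries, against 0 of 12 in other chains. Shares of the far fewer TRBV16 chains pass a fold more easily by counting error, so these counts are not alike. The Jensen-Shannon distance gave the same 3 nearest V calls. With 1 library per genotype, the spread between mice could not be measured, and strata of few UMIs hold too few TRBV16 chains for narrow intervals.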
